A study of Homo sapiens with 8 samples.

Results

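The 10 genes described here, HSPD1, HSPE1, HSPA9, DNAJA3, TRAP1, LONP1, CLPP, CLPX, YME1L1 and ATF5, are commonly used markers of the mitochondrial unfolded protein response, taken as a named list from 34792 genes whose transcripts were matched to a symbol. They were followed in A673/TR/shFEZF1 cells, an Ewing sarcoma line engineered so that doxycycline switches on an shRNA directed against the zinc finger transcription factor FEZF1. RNA was sequenced from 4 cultures without doxycycline (controls) and 4 cultures given doxycycline at 1 µg/mL for 72 h, and each group held 1 culture of the polyclonal population and 1 each of clones 3, 5 and 6. All 8 cultures carried the shRNA construct and grew in medium with blasticidin, puromycin and zeocin, and a culture given doxycycline without the shRNA was not analysed here, so the drug and the knockdown cannot be told apart. Nothing in the labels gives separate cultures of the same clone, so each origin was represented once in a group. The main model has a term for origin. Its p-values are set against the scatter left after origin and doxycycline are fitted, not against the full spread between cultures.

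Most mitochondrial proteins are made in the cytosol, enter the organelle unfolded and are folded there by a set of dedicated chaperones, while damaged or surplus proteins are cut by ATP-driven proteases. When unfolded protein accumulates in the organelle, cells can raise the transcripts of these chaperones and proteases, a response in which the transcription factor ATF5 takes part in mammals and in which ATF4, CHOP (DDIT3) and HSF1 have also been implicated. HSPD1 and HSPE1 form the matrix chaperonin, HSPA9 is the matrix HSP70, DNAJA3 is its J-protein partner and TRAP1 is the mitochondrial HSP90. LONP1 and the CLPP peptidase with its CLPX unfoldase act in the matrix, and YME1L1 acts in the inner membrane.

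None of the 10 genes passed the test of doxycycline against control, while 7.63% of all 15993 genes tested did. HSPA9 was 1.15-fold higher (95% interval 1.06 to 1.25) with an adjusted p of 0.0503, and ATF5 had the largest difference, 1.45-fold higher (1.12 to 1.88), in cultures that differed widely among themselves. HSPD1 and HSPE1, the most abundant of the set per length, had log2 fold changes of -0.02 and -0.04. Between the 4 origins, ATF5, YME1L1, LONP1 and HSPE1 passed the test, 4 of the 10 members against 39.4% of all genes tested.

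HSPD1 and HSPE1 are neighbours on chromosome 2 and are read in opposite directions from starts that lie 105 bases apart. On GRCh38.p14, HSPD1 runs from 197486584 to 197500274 on the minus strand and HSPE1 from 197500379 to 197503449 on the plus strand. RefSeq promoter windows, each from 250 bases before a start to 50 after it, were found for 8 of the 10 genes (12 windows), and CLPP and YME1L1 had no entry. The windows of 4 members that recur below are shown 5′ to 3′, with matches to 6 short motifs in capitals. The HSPE1 window (chr2:197500129-197500428, plus strand) shares 204 bases with the first HSPD1 window and shows the stretch between both starts. The second HSPD1 window (chr2:197499791-197500090, minus strand) belongs to a start inside the gene, downstream of 197500274. It is shown because it holds the only heat shock element among the windows. The HSPA9 window (chr5:138575352-138575651, minus strand) and an ATF5 window (chr19:49928955-49929254, plus strand) belong to the genes with the smallest adjusted p and the largest difference. ATF5 has other windows, among them that of the gene's RefSeq start at 49928906, and those match none of the 6 motifs.
HSPE1: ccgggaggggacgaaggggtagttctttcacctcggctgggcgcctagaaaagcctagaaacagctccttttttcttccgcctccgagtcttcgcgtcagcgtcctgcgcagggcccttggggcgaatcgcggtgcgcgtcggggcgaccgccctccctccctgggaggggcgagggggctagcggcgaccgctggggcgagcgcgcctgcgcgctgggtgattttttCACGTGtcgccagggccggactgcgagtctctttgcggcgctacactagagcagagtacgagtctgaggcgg
HSPD1: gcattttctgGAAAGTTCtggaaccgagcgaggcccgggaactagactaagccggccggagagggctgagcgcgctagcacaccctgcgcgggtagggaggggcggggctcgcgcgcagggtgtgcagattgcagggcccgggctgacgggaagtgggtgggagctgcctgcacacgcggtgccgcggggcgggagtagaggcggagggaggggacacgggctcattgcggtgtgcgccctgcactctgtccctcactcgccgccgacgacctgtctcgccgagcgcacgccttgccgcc
HSPA9: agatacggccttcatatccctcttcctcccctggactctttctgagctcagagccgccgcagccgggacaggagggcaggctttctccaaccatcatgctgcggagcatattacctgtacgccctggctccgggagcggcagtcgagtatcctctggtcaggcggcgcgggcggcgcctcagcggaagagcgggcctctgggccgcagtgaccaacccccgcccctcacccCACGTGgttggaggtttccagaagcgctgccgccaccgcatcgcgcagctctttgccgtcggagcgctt
ATF5: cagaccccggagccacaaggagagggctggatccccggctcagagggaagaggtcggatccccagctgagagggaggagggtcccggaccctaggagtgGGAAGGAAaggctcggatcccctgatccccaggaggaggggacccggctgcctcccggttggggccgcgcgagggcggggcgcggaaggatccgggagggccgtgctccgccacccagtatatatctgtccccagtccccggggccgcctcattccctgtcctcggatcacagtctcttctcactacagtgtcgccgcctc

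Positions are counted from the start that each window belongs to, with negative values before it, and both strands were searched. That start lies inside the gene for the second HSPD1, first LONP1 and shown ATF5 windows. The capitals mark the E-box CACGTG in HSPE1 (at -22) and HSPA9 (at -19). They also mark the heat shock element GAANNTTC in the second HSPD1 window (at -240) and the repeat GGAAGGAA in the ATF5 window shown (at -151). The E-box was also in the first HSPD1 window at -88, within the stretch shared with HSPE1, and in the first LONP1 window at -212 and -49, so that it was matched in 4 of 12 member windows and in 7.2% of 34796 promoters. The matches of HSPD1 and HSPE1 are the same site seen from each start. The heat shock element was in 6.79% of all promoters and GGAAGGAA in 3.68%. The NRF1 core CGCATGCG was matched in DNAJA3 and LONP1 and in 2.0% of promoters, and the ETS core CCGGAAG in the same pair of genes and in 10.2% of promoters. The C/EBP-ATF element TGATGNAA, in 3.63% of promoters, was in none of the 12 member windows. The ETS core and the repeat share the letters GGAA. These matches describe the letters only.

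Between 26719886 and 42422421 reads per library were assigned to transcripts, with overlapping depths in both groups, and the 10 members took between 0.273% and 0.319% of them. In each origin that share was higher with doxycycline, going from 0.277% to 0.298% in the polyclonal population, from 0.274% to 0.287% in clone 3, from 0.303% to 0.319% in clone 5 and from 0.273% to 0.305% in clone 6. FEZF1 itself was at 96.4, 70.5, 107 and 74.4 CPM (counts scaled to a common library size by TMM) in the control cultures, in the order polyclonal population, clones 3, 5 and 6, and at 60.6, 43.0, 60.8 and 36.4 CPM with doxycycline. It fell by 0.81 on the log2 scale (SE 0.0726, adjusted p = 0.00594), with every doxycycline culture below every control culture. All 8 Ewing sarcoma markers examined were present, the lowest being NKX2-2 at 49.9 CPM, and of these NR0B1 and NKX2-2 were higher and LIPI lower with doxycycline. Of 6 markers of other cell types, CDH5 was at 0 in every library, the summed level was 0.41 to 2.18 CPM in controls and 1.26 to 3.82 CPM with doxycycline, and PTPRC, KRT5 and ALB stayed at or under 0.126 CPM. EPCAM, of epithelium, was at 0.101, 0.0315, 1.74 and 0.121 CPM in the controls and at 0.553, 0.465, 2.92 and 0.925 CPM with doxycycline (log2 fold change 1.90, adjusted p = 0.0501). PECAM1, of endothelium, was at 0.361 ± 0.027 CPM in controls and 0.680 ± 0.188 CPM with doxycycline (0.89, adjusted p = 0.107), with every doxycycline culture above every control. Both were higher in 4 of 4 pairs, at low levels. Their part in the differences below was not tested. These are bulk cultures, in which a smaller number of expressing cells and less RNA per cell cannot be told apart.

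Levels are compared between genes in TPM, which accounts for transcript length. In the controls HSPE1 was at 861 ± 29.0 TPM and HSPD1 at 827 ± 19.1 TPM (mean ± SD, n = 4), and these neighbours in the order overlapped. HSPA9 at 245 ± 15.4 TPM and TRAP1 at 229.9 ± 20.7 TPM overlapped in the same way. YME1L1 followed at 142 ± 9.78 TPM and ATF5 at 136 ± 68.1 TPM, the latter ranging from 71.7 to 205 TPM across the levels of YME1L1 and LONP1. LONP1 (97.0 ± 13.0 TPM), DNAJA3 (73.4 ± 6.66 TPM), CLPP (54.5 ± 3.61 TPM) and CLPX (34.5 ± 3.53 TPM) closed the order. The LONP1 and CLPX levels include noncoding transcripts, which took most of the reads of these genes. The order of the means was kept with doxycycline except that ATF5, at 195 ± 79.6 TPM, came before YME1L1, at 156 ± 7.83 TPM.

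The chaperonin subunits differed least between the groups. HSPD1 was at 963, 1081, 1099.9 and 1111 CPM in the controls and at 968, 1089, 1091 and 1059 CPM with doxycycline, again in the order polyclonal population, clones 3, 5 and 6. The groups overlapped, 2 of 4 pairs were higher, and the log2 fold change was -0.02 (SE 0.0469, 95% interval -0.12 to 0.09, adjusted p = 0.876). HSPE1, the co-chaperonin that caps the HSPD1 ring, was at 192, 203, 224 and 216 CPM in the controls and at 174, 195, 222 and 223 CPM with doxycycline. Its log2 fold change was -0.04 (SE 0.0526, -0.16 to 0.08, adjusted p = 0.676), with 1 of 4 pairs higher and clone 5 nearly level. The value was -0.013 without the polyclonal population, -0.069 without clone 5 and -0.073 without clone 6. Per length the 2 subunits were close to each other in all 8 libraries, with a ratio of HSPD1 to HSPE1 TPM between 0.899 and 1.06. The readthrough gene HSPE1-MOB4, which overlaps HSPE1 and can share its reads, was far lower at 3.67 ± 1.05 CPM in controls and 5.32 ± 1.70 CPM with doxycycline (adjusted p = 0.311).

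**Figure D1:**
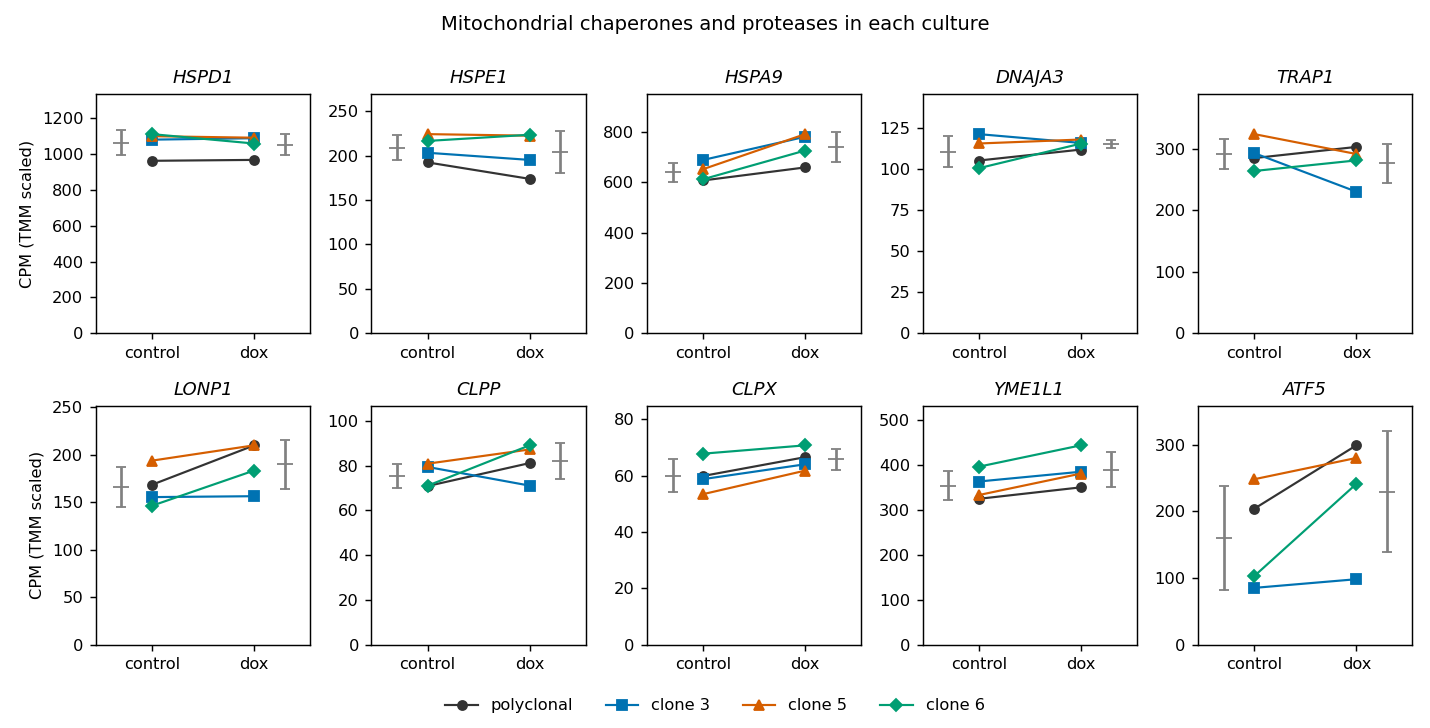
Level of each of the 10 genes (vertical axes, TMM-scaled CPM, from 0) in the control and doxycycline culture of each origin, with a line joining the cultures of 1 origin and grey bars for the mean ± SD of 4 cultures. HSPA9 lines all slope upward from 607 to 688 CPM in controls to 658 to 790.4 CPM with doxycycline, HSPD1 lines are nearly flat, and ATF5 lines are spread widely, from 85.1 to 299 CPM.

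HSPA9, the HSP70 that pulls precursors into the matrix and folds them, was higher with doxycycline in every origin. It was at 607, 688, 651 and 611 CPM in the controls and at 658, 779.9, 790.4 and 725 CPM with doxycycline. The clone 3 control lay above the doxycycline culture of the polyclonal population, so the groups overlapped although each pair moved the same way. The mean was 639 ± 38.1 CPM in controls and 739 ± 60.6 CPM with doxycycline, a log2 fold change of 0.21 (SE 0.0507, 0.09 to 0.32). The adjusted p of 0.0503 lay just outside the threshold of 0.05. HSPA9 was called by DESeq2 with the block (adjusted p = 0.00245), at a minimum of 10 counts in every library (0.0423) and with an offset for effective length (0.0496), and not in the model without the block (0.706). Over all alternatives its log2 fold change stayed between 0.165 and 0.231.

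DNAJA3 was lower with doxycycline in clone 3 and higher in the other origins. It was at 105, 121, 115 and 100.4 CPM in the controls and at 112, 116, 118 and 115 CPM with doxycycline, within the range of the controls throughout. Its log2 fold change was 0.06 (SE 0.0595, -0.08 to 0.20, adjusted p = 0.576), and it was 0.105 without clone 3 and 0.017 without clone 6. The ratio of HSPA9 to DNAJA3 TPM was 3.34 ± 0.114 in controls and 3.69 ± 0.231 with doxycycline, with overlapping groups. For HSPD1 over HSPA9, a ratio picked after its values had been seen and so not tested, TPM ratios were 3.23, 3.20, 3.44 and 3.70 in the controls and 2.99, 2.84, 2.81 and 2.97 with doxycycline. Every doxycycline culture was below every control in that ratio.

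TRAP1 went in different directions among the origins. It was at 285, 293, 324 and 264 CPM in the controls and at 303, 230.3, 292 and 281 CPM with doxycycline. The log2 ratio was 0.09 in the polyclonal population, -0.35 in clone 3, -0.15 in clone 5 and 0.09 in clone 6. The fitted log2 fold change was -0.08 (SE 0.0803, -0.27 to 0.11, adjusted p = 0.600), and without clone 3 it was 0.009. It was -0.141 without the polyclonal population, -0.137 without clone 6 and -0.176 with curated transcripts alone (adjusted p = 0.558).

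**Figure D2:**
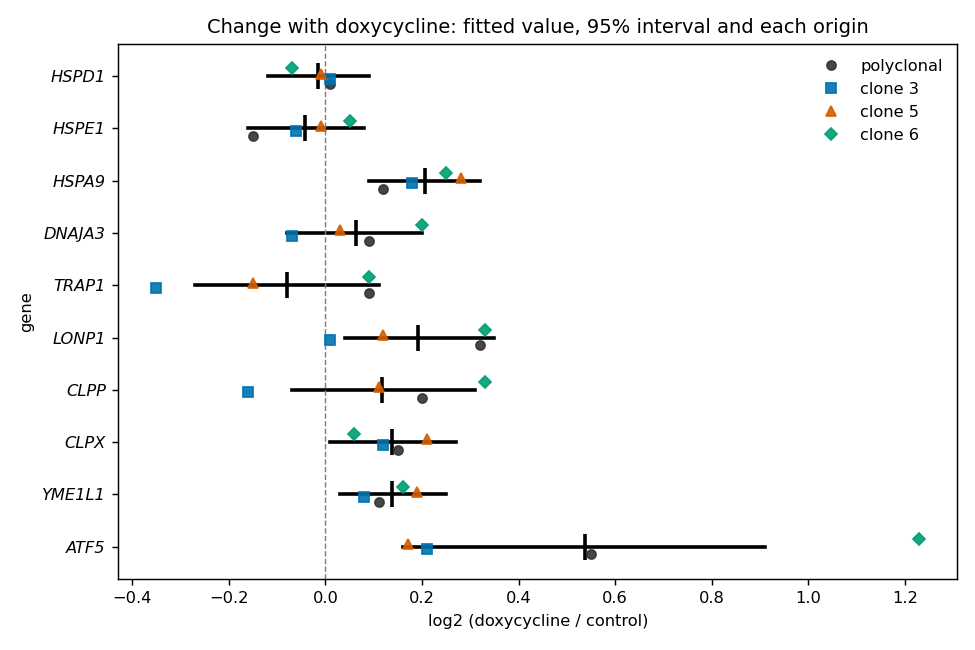
Log2 ratio of doxycycline to control for each gene, with a black tick for the fitted value, a black bar for its 95% interval and coloured symbols for the ratio within each origin. Intervals of HSPA9, LONP1, CLPX, YME1L1 and ATF5 lie above 0 before adjustment, the clone 3 symbol of TRAP1 is at -0.35 and the clone 6 symbol of ATF5 is at 1.23.

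The matrix proteases and the inner membrane protease had positive fitted values, and none passed the test. LONP1, the matrix protease that removes oxidised proteins, was at 168, 155, 194 and 146 CPM in the controls and at 209.8, 156, 209.9 and 183 CPM with doxycycline. The log2 fold change was 0.19 (SE 0.0674, 0.04 to 0.35, adjusted p = 0.130), but the log2 ratio within clone 3 was 0.01. CLPP, the peptidase, was at 70.8, 79.4, 80.8 and 71.0 CPM in the controls and at 81.1, 71.0, 87.2 and 89.0 CPM with doxycycline. It gave a log2 fold change of 0.12 (SE 0.0821, -0.07 to 0.31, adjusted p = 0.433), and here clone 3 was lower while the other origins were higher. Without clone 3 the value was 0.209 and without clone 6 it was 0.048. CLPX, the unfoldase that feeds CLPP, was at 59.9, 58.8, 53.4 and 67.8 CPM in the controls and at 66.6, 64.1, 61.8 and 70.8 CPM with doxycycline. All 4 pairs were higher, with a log2 fold change of 0.14 (SE 0.0566, 0.01 to 0.27, adjusted p = 0.185). With curated transcripts alone, which leaves out most of its reads, the value was 0.567 and CLPX was called (adjusted p = 0.0421).

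YME1L1, the inner membrane protease that processes OPA1, was at 324, 362, 332 and 395 CPM in the controls and at 349, 384, 380.0 and 443 CPM with doxycycline. Its 4 pairs were evenly higher, by log2 ratios of 0.08 to 0.19, while clone 6 was above the other origins in both groups. The fitted value was 0.14 (SE 0.0482, 0.03 to 0.25, adjusted p = 0.128). The TPM ratio of CLPX to CLPP was 0.638 ± 0.103 in controls and 0.643 ± 0.0623 with doxycycline, but it went from 0.593 to 0.711 in clone 3 and from 0.763 to 0.644 in clone 6. The ratio of LONP1 to CLPP was 1.78 ± 0.181 and 1.87 ± 0.188. Both ratios use sums over all transcripts, and most CLPX and LONP1 reads were assigned to noncoding transcripts, described below.

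ATF5, the bZIP factor of the response, had the largest log2 fold change of the set and also the largest spread. It was at 204, 85.1, 248 and 103 CPM in the controls and at 299, 98.1, 280.3 and 241 CPM with doxycycline. Both clone 3 cultures were the lowest of their group, and the groups overlapped. The log2 ratio was 0.55 in the polyclonal population, 0.21 in clone 3, 0.17 in clone 5 and 1.23 in clone 6, and the fitted value was 0.54 (SE 0.161, 0.16 to 0.91, adjusted p = 0.086). The coefficient of variation was 49.2% in controls and 39.6% with doxycycline, against 5.97% and 8.21% for HSPA9. Without clone 6 the log2 fold change was 0.312 (adjusted p = 0.122), and with no filter on low counts it was 0.534 and ATF5 was called (adjusted p = 0.0196).

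Taking the 10 members by count, 0 were called by edgeR's quasi-likelihood test with the origin as a block, in which 7.63% of 15993 genes were called and 3.73% were called higher. At an unadjusted p under 0.05, 5 members were higher (HSPA9, LONP1, CLPX, YME1L1 and ATF5), against 12.6% of all genes. The same 5 were higher in 4 of 4 pairs, against 17.3% of all genes, and 0 were lower in 4 of 4 pairs, against 15.9%. No member had every doxycycline culture above every control culture, which 2.64% of genes had, and the groups overlapped for all 10. DESeq2 with the block called 1 member, HSPA9, and 14.9% of genes, whereas edgeR without the block called 0 members, with 0 at an unadjusted p under 0.05, and 0.00625% of genes. The median log2 fold change was 0.13 over the members and 0.00 over all genes tested.

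Between origins, 4 of the 10 members differed, against 39.4% of all genes tested. In ATF5, clone 5 had a mean of 264 CPM and clone 3 of 91.4 CPM, a 2.89-fold difference (edgeR F test over origins, adjusted p = 0.00707), with the polyclonal population at 247 CPM and clone 6 at 158 CPM. In YME1L1 the clone 6 mean was 1.24-fold that of the polyclonal population (adjusted p = 0.0321). LONP1 was 1.29-fold higher in clone 5 than in clone 3 (adjusted p = 0.0443), and HSPE1 was 1.22-fold higher in clone 5 than in the polyclonal population (adjusted p = 0.0448). Clone 5 was the highest origin for ATF5, LONP1 and HSPE1, and clone 6 was the highest for YME1L1. The other 6 members had adjusted p-values between 0.104 (CLPX) and 0.583 (CLPP). The count was 2 without the polyclonal population, 2 without clone 3, 1 without clone 5 and 1 without clone 6. These fits had fewer libraries. The share over all genes in them is not given here, so these counts cannot be set against it.

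Several members were summed from more than 1 transcript, whose shares are Salmon's estimates. In CLPX, 64.9% ± 1.45 of the reads in controls and 66.5% ± 2.87 with doxycycline went to the predicted noncoding transcript XR_931743.3. The curated coding transcript NM_006660.5 had 18.1%, 19.9%, 16.8% and 16.1% of the gene's reads in the controls and 27.5%, 24.8%, 20.9% and 22.9% with doxycycline. The predicted coding transcript XM_011521164.3 went the other way in each origin, with 17.3% ± 2.77 in controls and 9.44% ± 4.65 with doxycycline. These shares were picked after their values had been seen and were not tested. The sum of curated transcripts alone, which gave the call of CLPX (log2 fold change 0.567, SE 0.0925), rests on NM_006660.5 with a trace of NR_133680.2.

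In LONP1 the noncoding transcript NR_076392.2 took 63.4% ± 1.17 in controls and 62.4% ± 3.79 with doxycycline, and the coding transcript NM_004793.4 took 35.9% ± 1.14 and 36.3% ± 4.59. The predicted TRAP1 transcript XM_011522345.2 was uneven, at 2.06%, 3.98%, 1.49% and 14.9% in the controls and at 0.896%, 25.7%, 12.1% and 5.31% with doxycycline, so it was higher in clones 3 and 5 and lower in the polyclonal population and clone 6. In ATF5, NM_001193646.1 held 93.5% ± 1.62 in controls and 93.3% ± 6.09 with doxycycline. HSPE1, HSPA9 and CLPP each had 1 transcript in the files, and NM_002156.5 took 98.0% ± 0.501 of HSPD1 in controls.

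**Figure D3:**
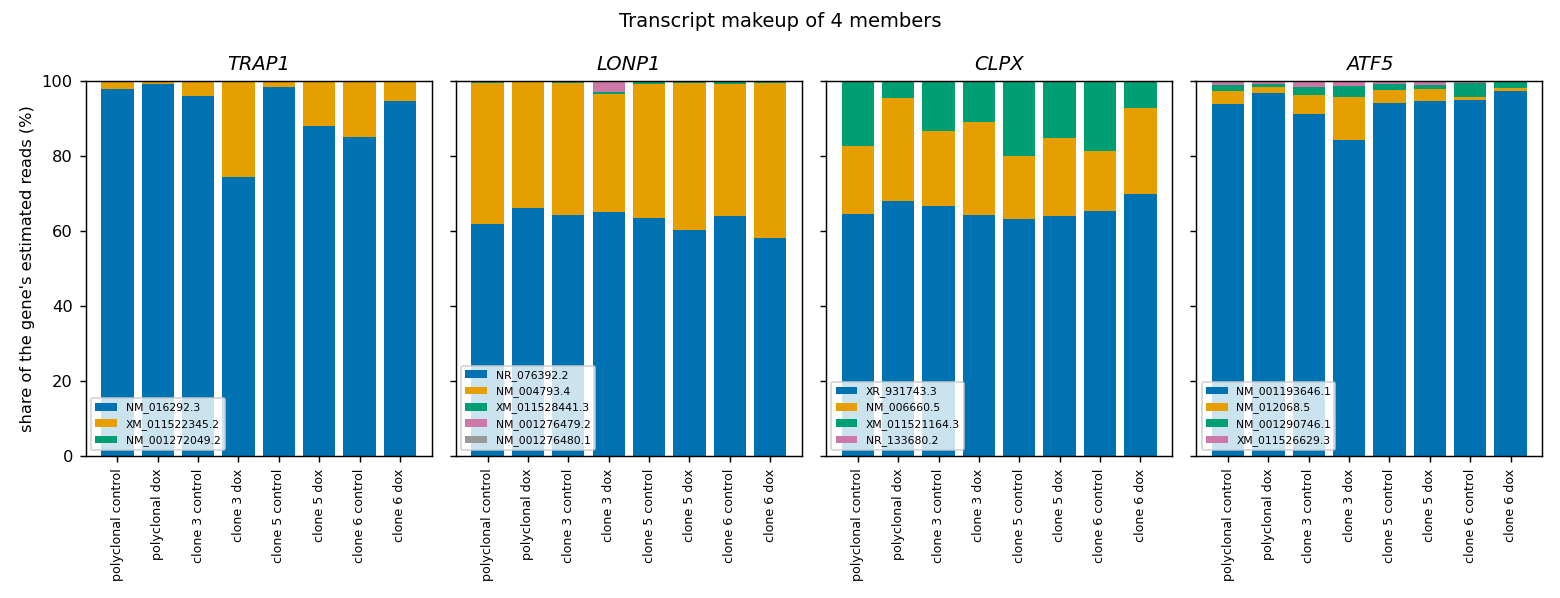
Stacked bars give the share of each transcript (vertical axis, percent of the gene's estimated reads, from 0 to 100) in each of the 8 libraries for TRAP1, LONP1, CLPX and ATF5. In CLPX the segment of NM_006660.5 is larger in the doxycycline library of every origin, and in TRAP1 the segment of XM_011522345.2 reaches 25.7% in clone 3 with doxycycline.

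Around these genes, 7 cofactors of the matrix HSP70 included 0 called (edgeR, with 1 at an unadjusted p under 0.05), with a median log2 fold change of 0.083. Over all 15993 genes tested, 3970 had an unadjusted p under 0.05 in either direction. The nucleotide exchange factor GRPEL1 had 0.12 (adjusted p = 0.270), its paralogue GRPEL2 0.15 (0.208), and the J-protein DNAJC15 1.08 (0.124) at a level below 1 CPM. Of 19 other mitochondrial proteases, peptidases and scaffolds, 2 rose, while 3.73% of all genes tested were called higher. LACTB, a filament-forming serine protease of the intermembrane space, rose from 7.91 ± 0.834 to 13.7 ± 2.18 CPM (log2 fold change 0.79, adjusted p = 0.0102). PITRM1, the matrix peptidase that degrades presequences, rose from 154 ± 12.2 to 183.6 ± 7.33 CPM (0.25, adjusted p = 0.0375). The disaggregase CLPB had 0.20 (0.0668) and was higher in 4 of 4 pairs, while AFG3L2 had 0.09 (0.345), HTRA2 0.11 (0.442), OMA1 -0.17 (0.405) and PHB2 -0.04 (0.841). The median of that list was 0.09, and 8 of its genes were higher in 4 of 4 pairs, against 17.3% of all genes tested.

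Of 20 import translocase genes, 0 were called and 0 had an unadjusted p under 0.05, with a median of 0.022. TIMM17A, a channel subunit, had 0.12 (adjusted p = 0.202) and TIMM44, which docks HSPA9 at the channel, 0.15 (0.265). Among 18 regulators of the stress responses, 2 fell, while 625 of 15993 genes tested were called lower. Among the 2 was EIF2AK3, the ER stress kinase PERK, which fell by 0.43 on the log2 scale (adjusted p = 0.0416). ATF4 was at 649 ± 61.8 CPM in controls and 664 ± 139.5 CPM with doxycycline (0.02, adjusted p = 0.931), DDIT3 had 0.27 (0.120) and HSF1 0.02 (0.847). Of 15 ATF4 targets tested of 16 listed, 2 rose and 1 fell, while 596 of 15993 genes tested were called higher and 625 lower. DDIT4, an inhibitor of mTORC1, rose from 16.5 ± 1.87 to 32.4 ± 7.96 CPM (0.95, adjusted p = 0.00611) and the glutathione-degrading enzyme CHAC1 rose from 10.0 ± 3.88 to 16.2 ± 6.40 CPM (0.65, adjusted p = 0.0484), whereas the secreted factor GDF15 fell by 1.24 on the log2 scale (adjusted p = 0.0189) from 2.31 ± 0.302 to 0.979 ± 0.176 CPM. The median of that list was 0.21.

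Genes of mitochondrial biogenesis (13 tested of 14) and of the mitochondrial antioxidant system (8) held 0 called, each with 1 at an unadjusted p under 0.05, and had medians of 0.062 and 0.076. Their smallest p-values belonged to ESRRA (0.20, adjusted p = 0.190) and POLG (0.15, 0.227), and to GLRX2 (0.23, 0.195) and SOD2 (0.10, 0.284). The cytosolic chaperonin, whose subunits fold actin and tubulin, held 0 called of 8, with 1 at an unadjusted p under 0.05 and a median of 0.021. Its CCT2 had 0.20 (adjusted p = 0.0558) and its TCP1 0.08 (0.360). Chaperones of the endoplasmic reticulum also held 0 called of 14, with 4 at an unadjusted p under 0.05, against 3970 of 15993 genes tested. Of the 14 values 10 were negative, against 7881 of all genes tested, with a median of -0.056. HSPA5, the ER counterpart of HSPA9, had -0.15 (adjusted p = 0.114) and PDIA4 -0.19 (0.0939), both lower in 4 of 4 pairs. Over these lists together, 122 genes tested of 124, DESeq2 with the block called 14 (14.9% of all genes) and edgeR 7 (7.63% of all genes), and edgeR without the block called 0.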

How the data were processed

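RNA from TruSeq stranded mRNA libraries of 8 cultures was quantified by the authors with Salmon on GRCh38 RefSeq transcripts, and the deposited estimated counts and TPM of 158867 transcripts were used. The deposited mean of normalized counts per gene, a signal value, served to check the matching. For each member, the mean of normalized counts computed here was 99.0% to 99.2% of the deposited mean. The authors' own comparison (fold changes and p-values) was not used. Whether counting used strand is not given in the sources used here.

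Transcripts were matched to RefSeq symbols (72.6%), and estimated counts were summed per symbol and rounded. Genes kept by filterByExpr were scaled by TMM. The test was the quasi-likelihood test of edgeR 4.0.16 in R 4.3.3, with doxycycline and origin as terms and p-values adjusted by Benjamini-Hochberg over 15993 genes at 0.05. Origin was a block because the labels give each origin a control and a doxycycline culture, although the study's methods name no pairing. Deviations from the group means correlated at 0.406 to 0.590 within origins and at -0.395 to 0.179 between them. Taking deviations from group means itself lowers the correlations between origins. Log2 ratios per origin used a pseudocount of 0.5. Alternatives were no block, DESeq2 1.42.0 with and (added after seeing the data) without the block, DESeq2 size factors, no filter, 10 counts in every library, an effective length offset, curated transcripts alone and leaving out each origin. The fits were run on simulated data with planted changes larger than the fitted value of any member, so that check does not cover changes of the members' size. The named genes are all members, FEZF1, HSPE1-MOB4, 10 preset genes, and in each list up to 4 called genes or, where none was called, the 2 with the smallest p; 1 gene that this rule names is not reported here. The members and lists were chosen with earlier results of these data known.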

Additional observations from a re-analysis of the deposited data

How the results depend on the processing

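Of 120 log2 fold changes (10 members under 12 alternatives), 113 kept their direction and their side of the threshold, 5 passed the threshold in addition and 2 changed sign. The count of members called, 0 in the reported model, was 1 under each of DESeq2 with the block, a minimum of 10 counts and the length offset (HSPA9 each time). It was 1 with no filter (ATF5), 1 with curated transcripts (CLPX) and 0 under the others. Over all genes, the settings with 1 member called gave, in the same order, 1920 of 12892, 1692 of 13595, 1205 of 15993, 1472 of 27478 and 493 of 14965. HSPD1 was between -0.034 and 0.002 with 1 origin left out (0.002 without clone 6), and TRAP1 between -0.141 and 0.009 (0.009 without clone 3). The 7 calls in the other lists became 14 with DESeq2 and the block, 0 with no replicate block, 3 with curated transcripts, 3 with DESeq2 and no block, and 1 (without clone 6) to 4 (without clone 3) with an origin left out. Members that differed between origins were 4, 3 with DESeq2 size factors and between 1 and 2 with an origin left out. The share over all genes in those alternative fits is not given here. Over all genes, 1221 calls became 1920 of 12892 with DESeq2 and the block, 1 with no block, 232 with DESeq2 and no block, 493 with curated transcripts, and 175 to 699 with an origin left out. Leaving out an origin also leaves fewer samples. The cause of the other changes was not tested. With 4 cultures a group from 4 origins, member log2 fold changes had standard errors of 0.0469 (HSPD1) to 0.161 (ATF5).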

Other observations

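CHAC1, a target of ATF4, was set beside ATF5 after the values of both had been seen, and no test was made. ATF5 was at 204, 85.1, 248 and 103 CPM in the controls of the polyclonal population and clones 3, 5 and 6, and CHAC1 at 11.4, 6.02, 14.8 and 7.92 CPM. With doxycycline ATF5 was at 299, 98.1, 280.3 and 241 CPM and CHAC1 at 20.3, 6.77, 20.1 and 17.5 CPM. In each group the origins had the same order for both genes, with clone 3 the lowest, and clone 6 had the largest log2 ratio for both (1.23 for ATF5 and 1.15 for CHAC1). DDIT4, another target, had log2 ratios of 0.86, 0.90, 1.28 and 0.76 in the same order of origins, the highest in clone 5.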
